A study of Mus musculus with 24 samples.

Results

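Caspases are proteases that cut their targets after aspartate residues, and 8 of their genes were examined in the ovaries of mouse line FL1, selected for high fertility, and of the control line DUKsi. The members were all probe sets annotated to Casp1, Casp2, Casp4, Casp6, Casp8, Casp9, Casp12 or Casp14 alone, which gave 10 probe sets out of 22690 on the MOE 430A array (12393 genes have a probe set of their own there), with 2 probe sets each for Casp9 and Casp12. Young virgin females of both lines were sampled at metestrus, when the ovary holds fresh corpora lutea beside growing follicles. FL1 had been selected to generation 130 on an index of litter size and litter weight at birth, whereas DUKsi is an unselected line inbred by mating full sibs, and both lines go back to 1 common population. Ovarian RNA of 30 animals per line was combined to 6 pools, and each pool was labelled and hybridised to 2 arrays, so that 24 arrays stood for 12 pools. The number of animals in a pool is given differently by the labels and by the methods, and single animals could not be told apart. Each line is 1 breeding population, so that selection, inbreeding of the control line and chance divergence cannot be told apart.

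Caspases are made as inactive precursors. Initiator caspases are switched on in protein complexes, caspase 8 below death receptors, caspase 9 in the apoptosome that forms around cytochrome c, and caspase 2 in the PIDDosome. Executioner caspases such as caspase 6 are activated by cleavage further down the cascade. Caspases 1, 4 and 12 are counted among the inflammatory caspases, and caspase 14 acts in the cornification of the epidermis. In the ovary, apoptosis removes the granulosa cells of follicles that become atretic and takes part in the regression of corpora lutea. Since caspases are regulated largely by cleavage of the precursor, transcript abundance measured on arrays is no measure of their activity.

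The stretches of 250 bases before the transcription start were taken from RefSeq (GRCm38.p6) for all 8 genes, of which the 3 that hold a GC box are shown, the GGGCGG element that Sp1 family factors bind. Capitals mark GGGCGG, or CCGCCC where the element lies on the other strand. Casp6 is shown as the member whose abundance differed between the lines, and Casp2 and Casp9 as initiators whose abundance did not pass the test.
Casp6 (chr3:129901165-129901414, + strand): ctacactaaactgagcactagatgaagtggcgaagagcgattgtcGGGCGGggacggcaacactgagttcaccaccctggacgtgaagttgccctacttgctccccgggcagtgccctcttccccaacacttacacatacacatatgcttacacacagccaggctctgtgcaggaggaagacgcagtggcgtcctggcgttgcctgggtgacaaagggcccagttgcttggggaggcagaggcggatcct
Casp2 (chr6:42264735-42264984, + strand): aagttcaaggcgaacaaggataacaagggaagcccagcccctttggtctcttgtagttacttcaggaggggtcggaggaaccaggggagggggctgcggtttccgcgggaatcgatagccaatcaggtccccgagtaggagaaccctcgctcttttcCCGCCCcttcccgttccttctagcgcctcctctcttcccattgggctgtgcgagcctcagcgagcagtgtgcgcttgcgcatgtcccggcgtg
Casp9 (chr4:141793362-141793611, + strand): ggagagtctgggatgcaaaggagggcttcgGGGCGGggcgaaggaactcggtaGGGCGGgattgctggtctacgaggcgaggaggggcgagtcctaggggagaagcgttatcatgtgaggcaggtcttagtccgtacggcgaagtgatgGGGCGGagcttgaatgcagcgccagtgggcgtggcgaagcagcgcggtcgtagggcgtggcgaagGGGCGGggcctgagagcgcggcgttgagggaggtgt
Casp6 had 1 GC box, at position -205 from the start, and a GC content of 58.4%. The Casp2 stretch also held 1, at position -93, and that of Casp9 held 4. None was found before Casp1, Casp4, Casp8, Casp12 or Casp14. A GC box occurs in 32.7% of all 32851 such stretches, whose median GC content was 52.4%. The Casp12 stretch instead held 2 matches to TTCNNNGAA, the letters of the gamma-interferon activated site, which 7.02% of all stretches hold and which none of the other caspase stretches had. These matches are a description of the letters only.

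Abundance is given as the MAS5 signal, a linear array intensity that had been scaled to the same trimmed mean on each array, and as the log2 fold change of FL1 over DUKsi. A probe set was taken to have passed at an adjusted p under 0.01, as estimated with limma over all 22626 probe sets tested, and to be called if the line means also differed at least 1.5-fold. Array medians lay between 212 and 244.5, and no array repeated another. The median signal of a pool was on average 221.1 in FL1, against 234.8 in DUKsi (exact permutation test, two-sided, p = 0.0108). The 3' to 5' signal ratio of beta-actin, a measure of RNA integrity, was 1.322 to 2.45 in the FL1 pools and 1.18 to 1.317 in the DUKsi pools without overlap (exact permutation test, two-sided, p = 0.00216, the smallest that 6 against 6 pools allow). FL1 pool 3 had the highest ratio.

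Of the 8 caspase genes, Casp6 alone passed the test between the lines, with a higher transcript abundance in FL1. It was also called, whereas the other 9 probe sets did neither, which makes 1 of 10 probe sets against a background of 2.32% of all probe sets called and 3.38% past the test. Of all probe sets, 1.24% were called higher and 1.07% lower in FL1, and 1.83% passed the test as higher. The caspase share rests on this 1 probe set. The median log2 fold change of the caspase probe sets was -0.07, the same as over all probe sets tested. Casp6 had also been listed by the study as different on these same samples, and its difference here is not independent of that selection. The study also measured Casp6 by quantitative PCR, in fresh pools of the same samples and in single animals. In the pools, it reports a significant correlation of PCR with array values for the selected transcripts, apart from exceptions that it names. Casp6 is not among these exceptions. The study names Casp6 among the transcripts whose difference between the lines was less significant in single animals.

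**Figure D1:**
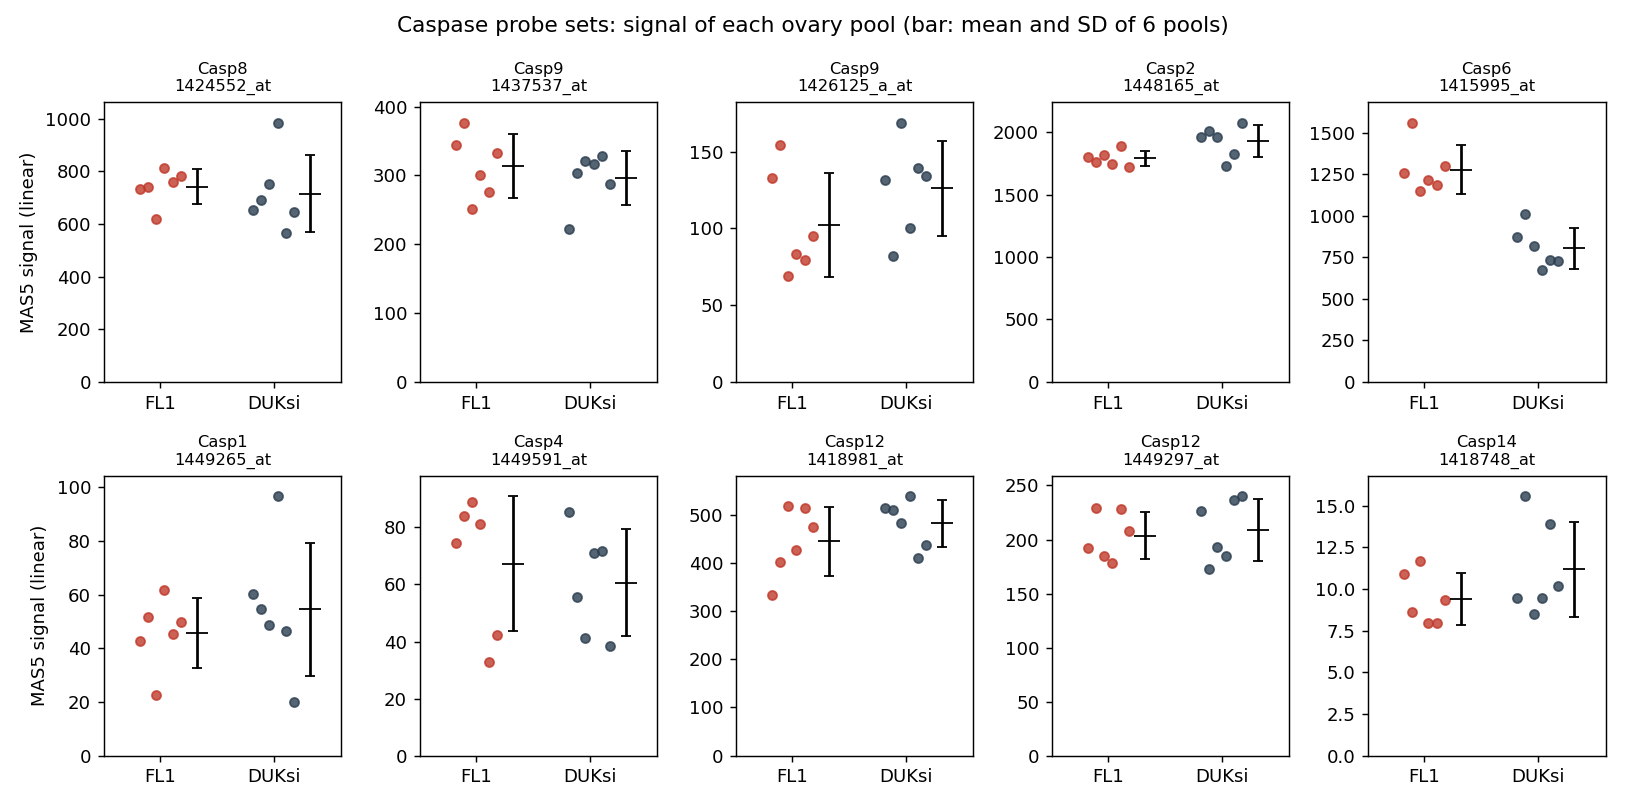
MAS5 signal (linear axis from 0) of each caspase probe set in the 6 FL1 pools (left, red) and the 6 DUKsi pools (right, dark), each point being the mean of the 2 arrays of a pool and each bar the mean and SD of the 6 pools. The points of both lines stand apart for Casp6 and overlap for the other 9 probe sets.

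Casp6 (1415995_at, chromosome 3) encodes an executioner caspase that cuts nuclear lamin A. Its signals were 1258, 1560.1, 1147, 1215, 1185 and 1299.95 in FL1 pools 1 to 6. In DUKsi pools 1 to 6 they were 871, 1010.45, 816, 671, 736 and 727. The lowest FL1 pool thus lay above the highest DUKsi pool, and FL1 was higher in 36 of 36 pairs of pools. Of all probe sets, 4.62% separated the lines in this way, 2.24% with FL1 above. The means were 1278 ± 148 in FL1 ovaries, against 805 ± 123 in DUKsi ovaries (SD, n = 6 pools each), which gives a ratio of 1.59 and a log2 fold change of 0.67 (SE 0.101, 95% interval 0.46 to 0.89, limma adjusted p = 0.000522). The interval corresponds to a 1.37- to 1.85-fold difference, so that the data do not place it firmly above the threshold of 1.5. By its unadjusted p, Casp6 ranked 276th of the 22626 probe sets, and by the size of its log2 fold change 1527th. Whole ovaries were measured, in which more Casp6 RNA per cell and more cells that carry it cannot be told apart.

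The single arrays of a pool gave the same picture with 1 exception on each side. Of the 12 FL1 arrays 11 exceeded every DUKsi array, and 11 of the 12 DUKsi arrays were below every FL1 array. The exceptions were the lower array of FL1 pool 3, at 986, and the higher array of DUKsi pool 2, at 1116. The SD between the 2 arrays of a pool was 0.16 on the log2 scale, less than the 0.25 that was the median of all probe sets. It was similar to the SD between FL1 pools of 0.16, while that between DUKsi pools was 0.21.

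**Figure D2:**
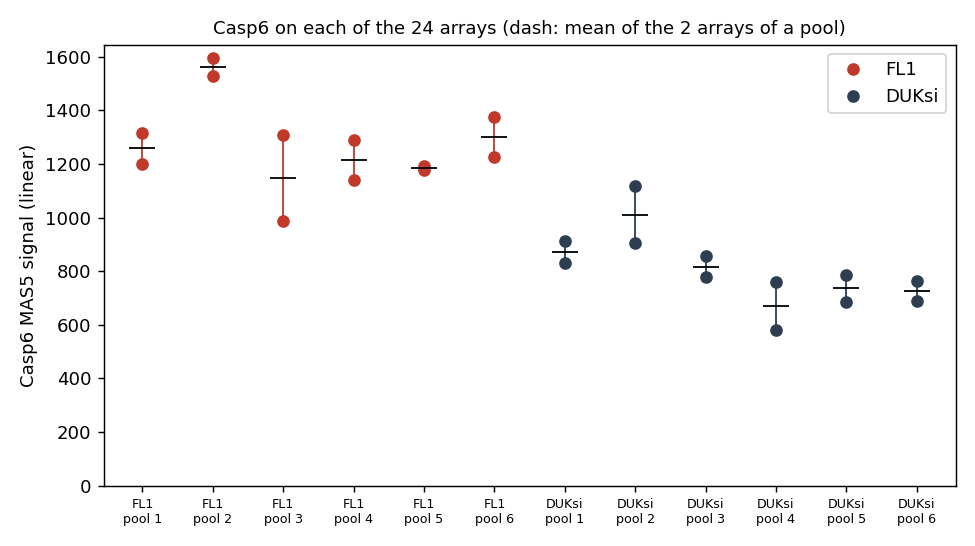
Casp6 MAS5 signal (linear axis from 0) on each of the 24 arrays, with the FL1 pools on the left and the DUKsi pools on the right; points joined by a line are the 2 arrays of a pool and the dash is their mean. The lower array of FL1 pool 3, at 986, and the higher array of DUKsi pool 2, at 1116, are the only arrays that reach into the range of the other line.

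Several measures of RNA quality and of cell composition moved with the line and hence with Casp6. The actin ratio was 1.322 to 2.45 in FL1 pools and 1.18 to 1.317 in DUKsi pools. Since these ranges do not overlap, line and ratio cannot be told apart. With the ratio as a covariate in the model, the Casp6 log2 fold change was 0.77 (limma adjusted p = 0.00128), but this fit cannot separate them either. With 1 probe set for each gene, 2.08% of all genes passed as higher and 1.65% as lower in FL1. Of 9 luteal cell markers measured, 5 were higher in FL1, among them Ptgfr, the prostaglandin F receptor, and Hsd17b7, and none was lower. Their summed signal was 69055 to 79169 in FL1 pools against 36154.5 to 54083.5 in DUKsi pools. Of 12 granulosa cell markers, 3 were lower in FL1 (Cdh2, Ccnd2 and Inhba) and none higher, with sums of 45284 to 51512 in FL1 pools and 52511 to 60541 in DUKsi pools. Of 13 oocyte markers, Zp3 alone was lower, and the sums were 9171 to 12150.3 in FL1 pools and 12017 to 14604 in DUKsi pools. Of 12 endothelial cell markers, Pecam1 alone was higher, with sums of 6379 to 7246 in FL1 pools and 5700 to 6834 in DUKsi pools. The part of these differences in the Casp6 result was not tested.

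The call did not depend on any 1 pool. Without FL1 pool 2, the highest of all, Casp6 had a log2 fold change of 0.61 (limma adjusted p = 0.00105) and a ratio of 1.52. Without both FL1 pool 3 and DUKsi pool 4 it was 0.65 (limma adjusted p = 0.00116). The first arrays of the pools alone gave 0.59 and the second arrays alone 0.75, both past the test.

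**Figure D3:**
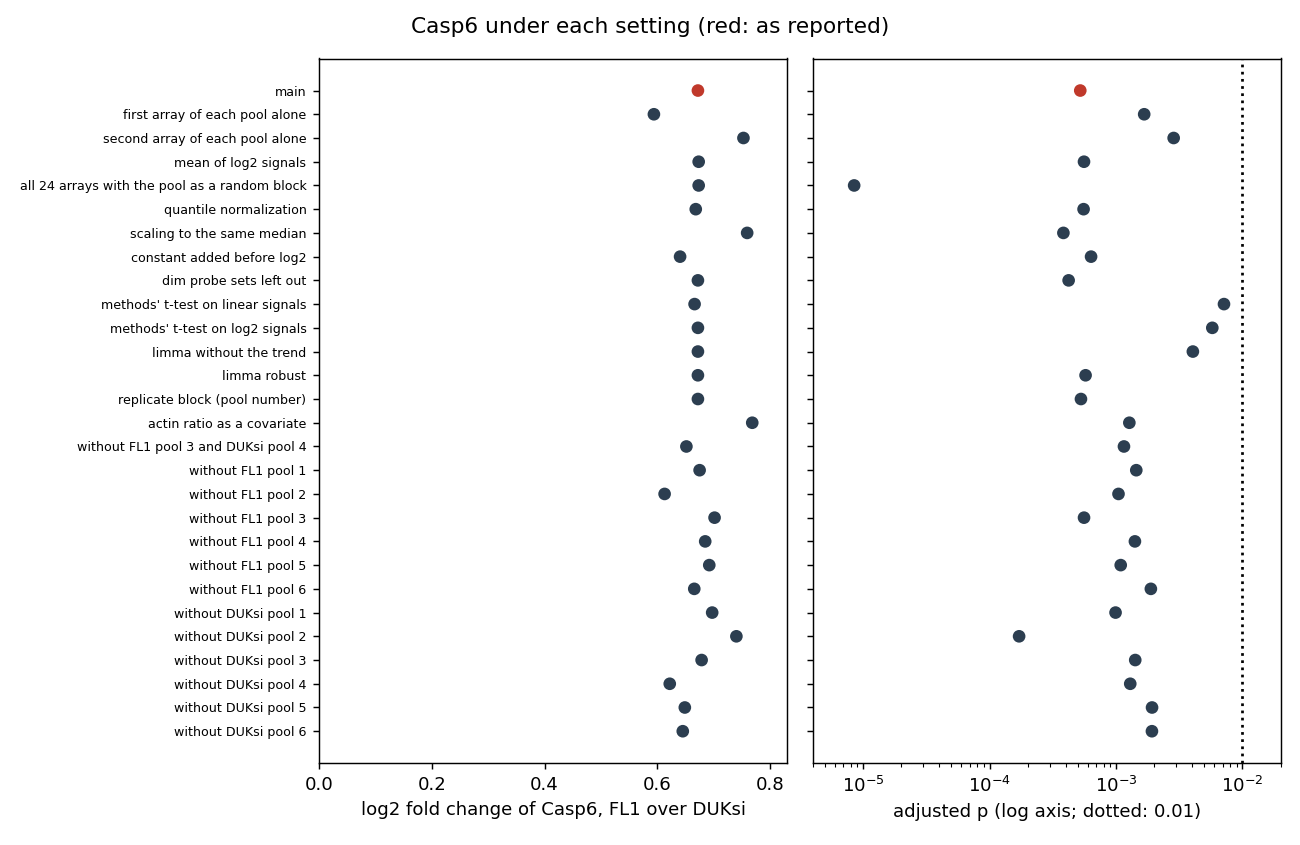
Log2 fold change of Casp6, FL1 over DUKsi (left, linear axis from 0), and its adjusted p (right, log axis, with 0.01 dotted) as reported (red) and under 27 other settings (dark). The log2 fold change stays between 0.59 and 0.77 and the adjusted p between 8.51e-06 and 0.00715.

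Among the initiators, Casp8 (1424552_at, chromosome 1), the caspase of the death receptors, had signals of 620 to 811 in FL1 pools with a median of 749. In DUKsi pools they were 565 to 985 with a median of 672. The upper end of the DUKsi range came from pool 4 alone, the next DUKsi pool being at 751. The means were 741 ± 65.9 in FL1 ovaries, against 715 ± 145.5 in DUKsi ovaries (SD, n = 6 each), which gave a log2 fold change of 0.07 (SE 0.114, 95% interval -0.17 to 0.31, limma adjusted p = 0.787).

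Casp9, the caspase of the apoptosome (chromosome 4), was represented by a pair of probe sets whose point estimates had opposite signs. 1437537_at had 252 to 377 in FL1 pools (median 316) and 222 to 328 in DUKsi pools (median 309), with a log2 fold change of 0.08 (SE 0.124, 95% interval -0.18 to 0.34, limma adjusted p = 0.770). 1426125_a_at had 68.7 to 154 in FL1 pools (median 89.2) and 81.7 to 169 in DUKsi pools (median 133), with a log2 fold change of -0.32 (SE 0.228, 95% interval -0.81 to 0.16, limma adjusted p = 0.473). The lines overlapped on both probe sets. The SD between arrays of a pool was 0.58 on the log2 scale for 1426125_a_at and 0.16 for 1437537_at. The difference between both fold changes, 0.40, did not pass an exact permutation test over the pools (p = 0.0758, adjusted p = 0.0926 over 11 contrasts).

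Casp2 (1448165_at, chromosome 6), the caspase of the PIDDosome, was measured most precisely. Its signals were 1723 to 1889 in FL1 pools with a median of 1780.35, and 1727 to 2078 in DUKsi pools with a median of 1961. FL1 was higher in 6 of 36 pairs of pools. The means were 1790.1 ± 59.8 in FL1 ovaries, against 1927 ± 127.6 in DUKsi ovaries (SD, n = 6 each), and the log2 fold change of -0.10 (SE 0.0583, 95% interval -0.23 to 0.02) did not pass the test (limma adjusted p = 0.348, unadjusted p = 0.0935). This was the lowest p of the 9 probe sets other than that of Casp6, none of which had an unadjusted p under 0.05. The array SD of Casp2 was 0.09 on the log2 scale.

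**Figure D4:**
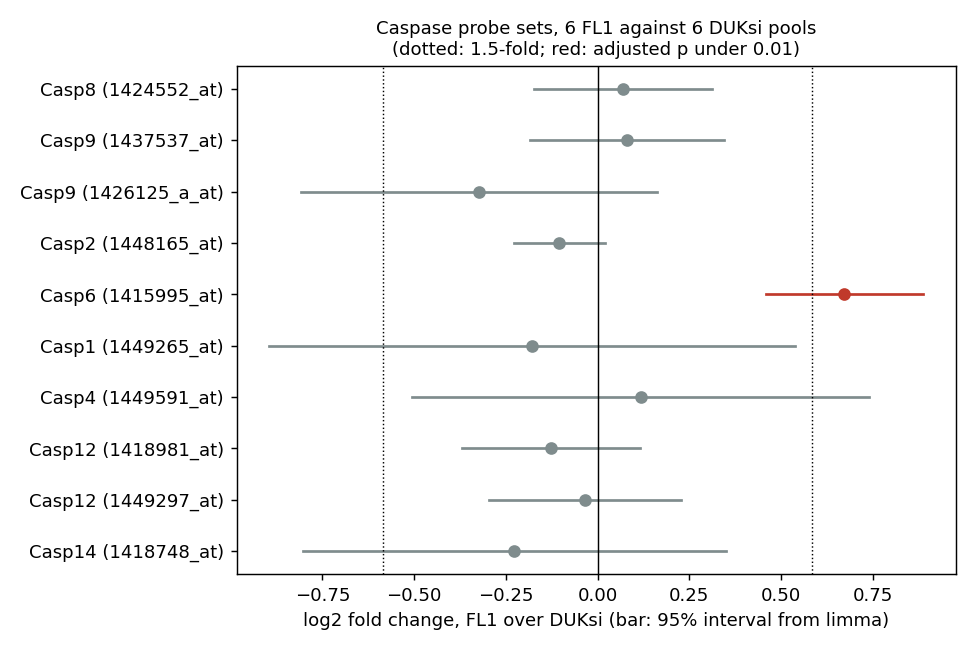
Log2 fold change of each caspase probe set, FL1 over DUKsi, with its 95% interval from limma (bars) and 1.5-fold in both directions (dotted). The interval of Casp6 (red), 0.46 to 0.89, lies apart from 0, and those of the other 9 probe sets include 0.

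The inflammatory caspases Casp1, Casp4 and Casp12 are neighbours on chromosome 9, and no measured gene lay between them. Casp1 (1449265_at), which activates interleukin 1 beta and interleukin 18, was near the lower end of the measured range. Its signals were 22.6 to 61.5 in FL1 pools (median 47.6) and 20.1 to 96.6 in DUKsi pools (median 51.7). The FL1 mean of 45.6 ± 13.0 was below 48.6, under which 20% of all signals fell, and the DUKsi mean was 54.5 ± 24.8 (SD, n = 6 each). The log2 fold change of -0.18 had a 95% interval of -0.89 to 0.54 (limma adjusted p = 0.817).

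Casp4 (1449591_at), which senses lipopolysaccharide inside the cell, had signals of 32.8 to 88.8 in FL1 pools (median 77.9) and 38.4 to 85.6 in DUKsi pools (median 63.4). The means were 67.3 ± 23.6 in FL1 ovaries, against 60.6 ± 18.7 in DUKsi ovaries (SD, n = 6 each), with a log2 fold change of 0.12 (95% interval -0.51 to 0.74, limma adjusted p = 0.868). Between the arrays of a pool, the SD was 1.12 for Casp1 and 1.22 for Casp4 on the log2 scale, more than between the pools of a line. The intervals reached past 1.5-fold lower in FL1 for Casp1 and past 1.5-fold higher for Casp4.

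Casp12, which is associated with the endoplasmic reticulum, was measured by 2 probe sets. 1418981_at had 333 to 518.5 in FL1 pools (median 450) and 410 to 538 in DUKsi pools (median 496), and its log2 fold change was -0.13 (SE 0.114, 95% interval -0.37 to 0.12, limma adjusted p = 0.584). 1449297_at had 178 to 229 in FL1 pools (median 200) and 173 to 240 in DUKsi pools (median 209.5), with a log2 fold change of -0.03 (SE 0.123, 95% interval -0.30 to 0.23, limma adjusted p = 0.912). Both intervals lay within 1.5-fold. The fold changes of both probe sets differed by -0.09 (exact permutation test over the pools, p = 0.567).

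Casp14 (1418748_at, chromosome 10), the caspase of cornifying keratinocytes, was dim in both lines. Its signals were 7.95 to 11.7 in FL1 pools and 8.5 to 15.6 in DUKsi pools, all below 48.6, and the log2 fold change of -0.23 (95% interval -0.80 to 0.35, limma adjusted p = 0.691) rests on these low values. Of 15 keratinocyte and cornification markers measured, none passed the test and 6 were likewise below 48.6 in both lines, among them Flg, Ivl and Tgm1. The median log2 fold change of this list was -0.13. Its summed signal was 2979 to 3730 in FL1 pools and 2727 to 3440 in DUKsi pools, most of which came from Blmh, a protease found in many tissues. Without Blmh, the sum of the other 14 genes was 1051 to 1542 in FL1 pools and 1152 to 1583 in DUKsi pools.

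Of the 9 probe sets other than that of Casp6, 3 had positive and 6 had negative log2 fold changes, with adjusted p-values of 0.348 to 0.912. The 95% intervals of 5 of them lay within 1.5-fold in both directions. Those of Casp1, Casp4, Casp14 and 1426125_a_at of Casp9 went past it, so that a change as large as that of Casp6 in 1 direction was within their intervals. Within the lines, DUKsi pool 4 had the highest signals of its line for Casp8, Casp1 and 1418981_at of Casp12 and the lowest for Casp6 and Casp2. It also had the highest summed macrophage marker signal of its line, 8596, against 6333 to 7256 in the other DUKsi pools. FL1 pool 3, with the actin ratio of 2.45, had the lowest signals of its line for Casp6, Casp8, Casp1 and both Casp9 probe sets, and the highest for Casp4, Casp14 and 1418981_at of Casp12. The part of the actin ratio and of macrophages in these values was not tested.

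The difference of Casp6 from its relatives was tested on the log2 ratio of both signals within a pool, which does not depend on the scaling of the array. The line difference of Casp6 exceeded that of Casp8 by 0.60, that of Casp2 by 0.78 and that of 1418981_at of Casp12 by 0.80. In each of these 3 contrasts, FL1 had the higher ratio in 36 of 36 pairs of pools (exact permutation test, two-sided, p = 0.00216, adjusted p = 0.00595 over 11 contrasts). For 1449297_at of Casp12 the excess was 0.71 (exact permutation p = 0.00433, adjusted p = 0.00952). For Casp9 it was 0.59 on 1437537_at and 0.995 on 1426125_a_at (exact permutation p = 0.00649, adjusted p = 0.0102 for both, just short of 0.01). Against Casp1, whose FL1 mean was below 48.6, it was 0.85 (exact permutation p = 0.039, adjusted p = 0.0536). The line means of Casp4 were above that limit, but its lowest pools, 32.8 in FL1 and 38.35 in DUKsi, were below it. Against Casp4 the excess was 0.56 (exact permutation p = 0.117, adjusted p = 0.129). The contrast with Casp14 was computed as well, but it rests on a probe set below 48.6 in both lines and its value is not given here. It counts among the 11 contrasts of the adjustment, so that the adjusted p-values above depend on it. All contrasts with Casp6 share its signals and are not independent of each other, and Casp6 was taken for them after its own result was known.

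The genes whose signals were most like those of Casp6 over the 12 pools were Smarcd3, a subunit of the BAF chromatin remodelling complex (r = 0.949), Aldoa, the glycolytic enzyme aldolase A (r = 0.944), and Col4a1, a collagen of basement membranes (r = 0.943), among 10418 probe sets with signals above the median. They share the difference between the lines to unequal degree, with log2 fold changes of 0.78 for Smarcd3 (limma adjusted p = 2.83e-05), 0.51 for Aldoa (limma adjusted p = 0.0006) and 0.23 for Col4a1 (limma adjusted p = 0.0224). After the mean of each line had been removed, the most similar genes were others, Isoc1 (r = 0.937), Tmem250-ps (r = 0.932) and Adprm (r = 0.913), none of which passed the test between the lines. The pools share their arrays and scaling, and these correlations are given as a description without a test.

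On chromosome 3, the measured genes on either side of Casp6 were Pla2g12a, with a log2 fold change of 0.37 (limma adjusted p = 0.125), and Sec24b, with -0.03 (limma adjusted p = 0.923). Of the 5 measured genes on each side, 1 passed the test, Hadh, a mitochondrial enzyme of fatty acid oxidation, with 0.42 (limma adjusted p = 0.00109). Of all genes, 2.08% passed as higher and 1.65% as lower. The neighbours ranged between -0.64 and 0.42. Casp9 also had 1 neighbour of 10 past the test, Tmem51, and no neighbour of Casp1, Casp2, Casp4, Casp8, Casp12 or Casp14 passed.

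Around the caspases, genes of the same pathways were examined in order of their roles, with the probe set of highest signal for each gene. Of all genes taken this way, 2.08% passed with higher and 1.65% with lower abundance in FL1. Of all probe sets, 4.62% separated the lines in 36 of 36 pairs of pools, 2.24% with FL1 above. Upstream of Casp8, 1 of 11 measured genes of the death receptor arm passed, and none was higher in FL1 (median log2 fold change 0.06). This was Tnfrsf21, the death receptor DR6, with 308 ± 23.5 in FL1 ovaries, against 421 ± 38.1 in DUKsi ovaries (SD, n = 6 each) and a log2 fold change of -0.45 (SE 0.0893, limma adjusted p = 0.00474), with FL1 lower in 36 of 36 pairs of pools. Fas was below 48.6 in both lines. The adaptor Fadd, which carries caspase 8 to the receptors, had -0.24 (limma adjusted p = 0.261).

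Upstream of Casp9 and Casp2, none of 8 genes of the mitochondrial and PIDDosome arm passed (median -0.12). Cycs, cytochrome c, had 3324 in FL1 ovaries, against 3593 in DUKsi ovaries (limma adjusted p = 0.511), and Diablo, which neutralises inhibitors of apoptosis, had 1090 in FL1 ovaries, against 1179 in DUKsi ovaries (limma adjusted p = 0.500). Apaf1, the scaffold of the apoptosome, was chosen after its values were seen. It had lower signals in FL1 in 36 of 36 pairs of pools but did not pass (log2 fold change -0.37, limma adjusted p = 0.0858). Such a separation, in either direction, occurred in 4.62% of all probe sets.

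None of 8 measured genes listed as caspase inhibitors passed (median -0.01). The list holds the family of inhibitor of apoptosis (IAP) proteins and the caspase 8 inhibitor FLIP. Xiap, which binds caspases directly, had 1427 in FL1 ovaries, against 1614 in DUKsi ovaries (limma adjusted p = 0.154), and Birc2 had 1014 in FL1 ovaries, against 1060.05 in DUKsi ovaries (limma adjusted p = 0.715). Naip2 and Naip5, named after their values were seen, had higher signals in FL1 in 36 of 36 pairs with log2 fold changes of 0.66 and 0.68, but their adjusted p-values of 0.0422 and 0.0299 (limma) missed the threshold. Such a separation with FL1 above occurred in 2.24% of all probe sets. Naip2 and Naip5 are listed here by family, and their values are no measure of caspase inhibition. Naip genes are closely related copies, and their probe sets may share signal.

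Downstream, none of 17 measured caspase substrates passed (median -0.04). Vim, vimentin, a substrate of caspase 6, had 7606 in FL1 ovaries, against 7172 in DUKsi ovaries (limma adjusted p = 0.588), and Gsn, gelsolin, had 3425 in FL1 ovaries, against 3519 in DUKsi ovaries (limma adjusted p = 0.899). The fold change of Gsn depended on the probe set, with a mean log2 fold change of -1.81 over its 6 probe sets. Gas2, a regulator of the cytoskeleton, was named after its values were seen. It had 104 ± 28.5 in FL1 ovaries, against 163 ± 8.5 in DUKsi ovaries (SD, n = 6 each). It did not pass (log2 fold change -0.69, limma adjusted p = 0.0192), with lower signals in FL1 in 36 of 36 pairs of pools. Such a separation, in either direction, occurred in 4.62% of all probe sets. Lmna, encoding the lamin A that caspase 6 cuts, chosen for this reason, had 556 ± 77.2 in FL1 ovaries, against 541 ± 38.3 in DUKsi ovaries (SD, n = 6 each, limma adjusted p = 0.896).

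**Figure D5:**
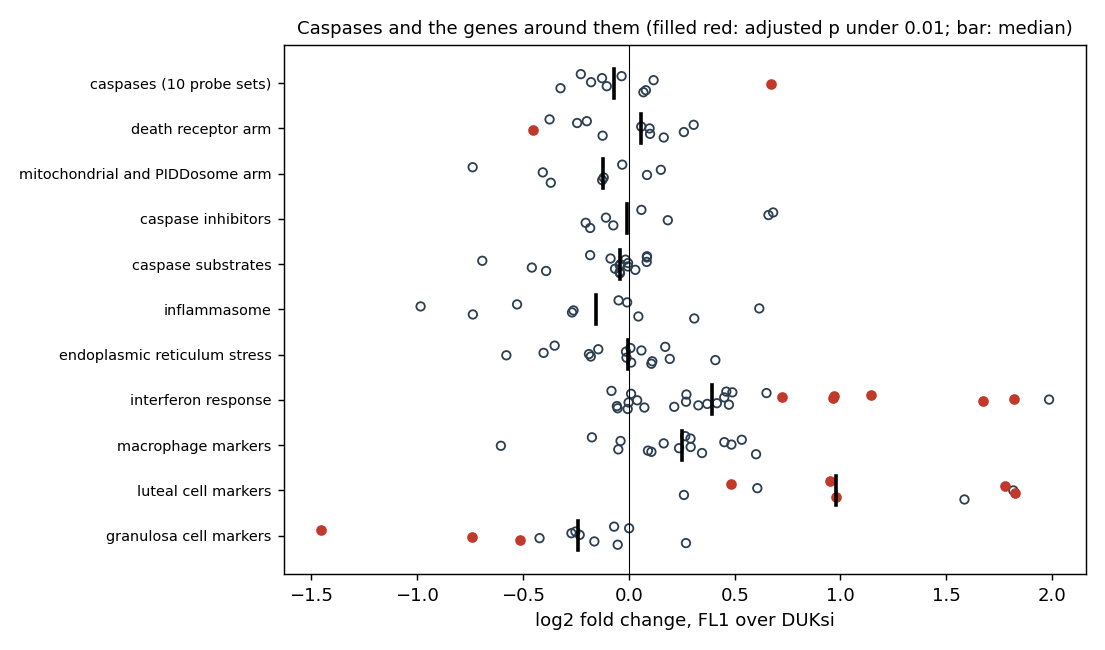
Log2 fold change, FL1 over DUKsi, of the 10 caspase probe sets (top row) and of the genes of each list, 1 probe set per gene, with the median of each row as a bar and genes at an adjusted p under 0.01 filled in red. Of the caspases Casp6 alone is filled, and filled genes are more numerous among the interferon response genes (6 of 26) and the luteal cell markers (5 of 9).

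Around the inflammatory caspases, none of 10 measured inflammasome genes passed (median -0.155). Pycard, the adaptor of Casp1, had 414 in FL1 ovaries, against 335.5 in DUKsi ovaries (limma adjusted p = 0.139), and Il18, a substrate of caspase 1, had 278 in FL1 ovaries, against 288 in DUKsi ovaries (limma adjusted p = 0.984). Il1b, the other substrate, named after its values were seen, had 179 ± 51.6 in FL1 ovaries, against 251 ± 26.9 in DUKsi ovaries (SD, n = 6 each), and did not pass (log2 fold change -0.53, limma adjusted p = 0.0838), with higher signals in FL1 in 3 of 36 pairs of pools. None of 16 genes of endoplasmic reticulum stress passed either (median -0.002). Hspa5, the chaperone BiP, had 13820 ± 523 in FL1 ovaries, against 12834 ± 350.01 in DUKsi ovaries (SD, n = 6 each, limma adjusted p = 0.269), and Calr, calreticulin, had 9374 in FL1 ovaries, against 8673 in DUKsi ovaries (limma adjusted p = 0.308).

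Casp1 and Casp4 are induced by interferons in macrophages, and genes of the interferon response were therefore looked at as well. Of 26 measured genes 6 were higher in FL1 and none lower (median 0.39). Cxcl10, a chemokine induced by interferon gamma, had 216 ± 116 in FL1 ovaries, against 59.8 ± 22.9 in DUKsi ovaries (log2 fold change 1.82, limma adjusted p = 0.00104), and Ifi35 had 389 ± 105 in FL1 ovaries, against 132 ± 66.0 in DUKsi ovaries (1.68, limma adjusted p = 0.00318). Tap1, the peptide transporter of antigen presentation, had 359 ± 58.2 in FL1 ovaries, against 162 ± 20.7 in DUKsi ovaries (1.14, limma adjusted p = 3.5e-05), although the mean over its 4 probe sets was 0.03. Psmb9, a subunit of the immunoproteasome, had 518 ± 97.4 in FL1 ovaries, against 263 ± 38.9 in DUKsi ovaries (0.97, limma adjusted p = 0.00025; SD, n = 6 each throughout). Of 16 macrophage markers, none passed (median 0.25), with sums of 7407 to 8851 in FL1 pools and 6333 to 8596 in DUKsi pools, and Cd163 and Marco were below 48.6 in both lines. None of 13 lymphocyte markers passed (median 0.03), and 5 of them were below 48.6 in both lines. The part of immune cells in the caspase signals was not tested.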

How the data were processed

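Total RNA of mouse ovaries was prepared per animal and pooled, and biotinylated cRNA made from it was hybridised to MOE 430A arrays. The authors deposited intensity values on which MAS5 (Microarray Suite 5.0 in the methods) had been run, scaled to a common target, on a linear scale. The trimmed mean, with 2% left out at each end, was checked to be 500.1 on each of the 24 arrays, and the number of arrays limits the precision. Present calls were not used here.

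The mean of the 2 arrays of a pool was taken, so that n counts pools. FL1 and DUKsi were compared on log2 values in R 4.3.3 with limma 3.58.1 (empirical Bayes with a trend), with Benjamini-Hochberg adjustment over 22626 probe sets after 64 controls were left out. Where nothing says that pools were raised apart, p-values measure the spread between these pools. The study assigned animals to pools by the size of their birth litters, to make parental fertility alike between pools of a line. The pools were therefore not random draws, and the part of this in their spread was not tested. Genes were taken from the platform annotation, which gives 1 gene for 20380 probe sets, several for 691 and none for 1555, and gene order and promoters from RefSeq (GRCm38.p6). Single values were tested by exact permutation over the 924 assignments of the pools (scipy 1.17.1). The methods' t-test, other normalizations, a constant, a filter, single arrays, a block and left-out pools were tried as alternatives. The procedure was tested on simulated data.

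All caspase probe sets are named. From each list, up to 4 genes past the test with the largest absolute log2 fold change are named, or, where none did, up to 2 with the highest signals. Genes added after their values were seen are stated as such; Fadd, Fas and the markers named are further additions of this kind. The members, lists and motifs were chosen with earlier results of these data known.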

Additional observations from a re-analysis of the deposited data

Results flagged for a closer look

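The Casp6 signal of FL1 pool 2, 1560.1, was set apart from the other 5 FL1 pools, of which the next was at 1299.95. Its gap to that pool was 0.63 of the range of the line, just above the limit of 0.625 for 6 pools. Of the 20 groups of pools looked at, this was the 1 that exceeded the limit, and chance gives about 1 in 20. Without this pool, the Casp6 log2 fold change was 0.61 (limma adjusted p = 0.00105).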

How the results depend on the processing

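Casp6 kept its direction and its side of the threshold under all 27 alternatives, with a log2 fold change of 0.59 to 0.77 and adjusted p-values of 8.51e-06 (a fit of all 24 arrays, blocked at random by pool) to 0.00715 (the methods' t-test on a linear scale). With 1 pool left out it was 0.61 to 0.74 (limma adjusted p 0.000171 to 0.00193, ratio 1.52 to 1.67). The count of caspase probe sets past the test was 1 under each of them. None of the other 9 probe sets passed under any alternative, in 239 results with a lowest adjusted p of 0.111, but 18 of these results had the other sign. The log2 fold change of Casp4 was -0.63 on the first arrays alone, -0.00039 with the mean of log2 signals and with 24 arrays, and -0.0029 without DUKsi pool 6. That of Casp1 was 0.33 on the second arrays alone, 0.16 with the actin ratio as a covariate, 0.21 without FL1 pool 3 and DUKsi pool 4, 0.012 without FL1 pool 3 and 0.015 without DUKsi pool 4. For 1449297_at of Casp12 it was 0.25 on the second arrays, 0.053 with quantile normalization, 0.049 with scaling to the same median and 0.078 with the actin ratio, and 0.0023, 0.0040 and 0.0080 without FL1 pool 4, DUKsi pool 5 and DUKsi pool 6. For Casp9 it was 0.080 on 1426125_a_at with the actin ratio and -0.00045 on 1437537_at without DUKsi pool 1. With 1 pool left out, the range was -0.44 to 0.015 for Casp1, -0.0029 to 0.31 for Casp4, -0.00045 to 0.14 for 1437537_at and -0.087 to 0.0080 for 1449297_at. The cause was not tested.

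Of all probe sets, 764 passed the test, against 468 on the second arrays alone, 1278 with 24 arrays, 507 with the linear-scale t-test of the methods, 1564 at an adjusted p under 0.05 and 1241 with the actin ratio. Called were 524, against 335 with that t-test and 865 with the actin ratio. Higher in FL1 were 281 of those called, against 166 with that t-test and 187 with the methods' t-test on log2 signals, and lower were 243, against 370 at an adjusted p under 0.05 and 493 with the actin ratio. With 1 pool left out, 573 to 943 passed and 431 to 614 were called, 236 to 318 of them higher and 193 to 296 lower in FL1. Scaling to the same median moved the share of calls that were higher in FL1 to 67.5% and the actin ratio to 43%, against 53.6% as reported, and the median log2 fold change of all probe sets to 0.02 and -0.11, against -0.07. The pool numbers did not pair the pools, since deviations of pools with the same number correlated at -0.264 to 0.167. With the pool number as a replicate block, Casp6 had 0.67 (limma adjusted p = 0.000529) and 461 probe sets were called. When the fold changes of all probe sets of a gene were averaged, 4 of the 14 list medians moved by more than the SD of that list's median between pools of a line: to -0.114 for caspase inhibitors (SD 0.0879), -0.121 for substrates (0.0472), -0.046 for endoplasmic reticulum stress (0.0322) and 0.222 for lymphocyte markers (0.154). Signals below about 48.6, as for Casp14 and partly for Casp1 and Casp4, limit what can be said of these genes.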
